A study of Homo sapiens with 4 samples.

Results

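The genes described are SNARE genes of the VAMP, syntaxin and SNAP families: VAMP2, VAMP3, VAMP4, VAMP5, VAMP7, VAMP8, STX2, STX3, STX4 and SNAP23. They were chosen by name, with earlier results of these data known. They are VAMP3, a long known target of the microRNA miR-124, and relatives that act with it or beside it. The array has 52377 probe sets, of which 19 belong to 9 of the 10 genes, each to 1 gene and no other. VAMP5 had none and is not analysed here. The array measured 19798 genes by such probe sets.

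The RNA came from HCT-116 dicer- cells, which derive from a human colon carcinoma and carry a change in Dicer, a nuclease that processes microRNA precursors. Total RNA was hybridised to 4 one-colour arrays. All cells carried this alteration and all were collected 24 h after transfection. The segmented miR-124 duplex, with a guide strand made in pieces (G10.12/P, 10 nM), has 1 array, the intact miR-124 duplex (G/P, 10 nM) has 1, and mock transfection has 2. The series asks whether the activity of the microRNA's seed is kept once the guide strand is segmented. The seed is the 5′ stretch of a microRNA that finds its target messenger RNAs by pairing, and miR-124 is abundant in neurons.

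SNARE proteins drive the fusion of vesicles with target membranes. An R-SNARE on the vesicle, usually a VAMP, forms a bundle of helices with Q-SNAREs on the target, such as a syntaxin and SNAP23. The different VAMPs and syntaxins mark different routes. In epithelial cells STX3 is known for the apical and STX4 for the basolateral plasma membrane, and VAMP2 is best known from the synaptic vesicles of neurons.

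Levels are log2 intensities of the brightest probe set of a gene and are not comparable between probe sets. A level set against the median of genes, or a sum over genes, is therefore a rough guide only. Each duplex has 1 array, so limma takes the spread from the pair of mock arrays, which a single duplex array is taken to share. P-values were adjusted over all 19798 genes and tested at 0.05. The labels do not tell whether the mock samples were separate cultures, and the spread behind the p-values may therefore be technical. Both duplexes are set against the same mock arrays, and mock transfection is the only control. Without a control duplex of another sequence, an effect of miR-124 and one of transfecting any duplex cannot be told apart. In RNA of a whole culture, a lower level in every cell and a loss from some of the cells cannot be told apart. Of 7 measured epithelial and colon markers, 2 (LGALS4 and VIL1) lay below the median level of genes on every array. With the segmented duplex 0 of the 7 passed the test by limma, with 2 at an unadjusted p under 0.05 (27.4% of all genes). The 2 went opposite ways, CDH1 with a change of 0.60 and KRT18 with -0.49. With the intact duplex 2 rose, CDH1 by 0.79 and CDX2 by 0.69 (limma adjusted p = 0.0227 and 0.0291). KRT18, at -0.52 with that duplex, did not pass (limma adjusted p = 0.058). In that comparison 14.5% of all genes were called higher. Of 11 measured markers of other cell types, 10 lay below the median level of genes on every array. Their summed intensity was 866 with the segmented duplex, 1150 with the intact duplex, and 632 and 564 on the mock arrays. COL1A1, the marker above the median, had log2 levels of 9.21, 9.76 and 8.56 in the same groups (mock as the mean of 2 arrays). With the intact duplex 3 of the 11 markers passed the test as higher and 1 as lower, against 14.5% and 10.4% of all genes. The part of the markers in the results was not tested.

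With the segmented duplex 1 of the 9 SNARE genes fell, VAMP3, and 1 rose, VAMP2; 7 did not pass the test. Across all genes 2.68% were called lower and 3.31% higher in that comparison. With the intact duplex 3 fell, VAMP3, VAMP7 and STX2, and 1 rose, VAMP2, while 5 did not pass; across all genes 10.4% were called lower and 14.5% higher. The median log2 change of the 9 genes was -0.15 with the segmented and -0.16 with the intact duplex, against 0.01 and 0.02 over all genes.

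**Figure D1:**
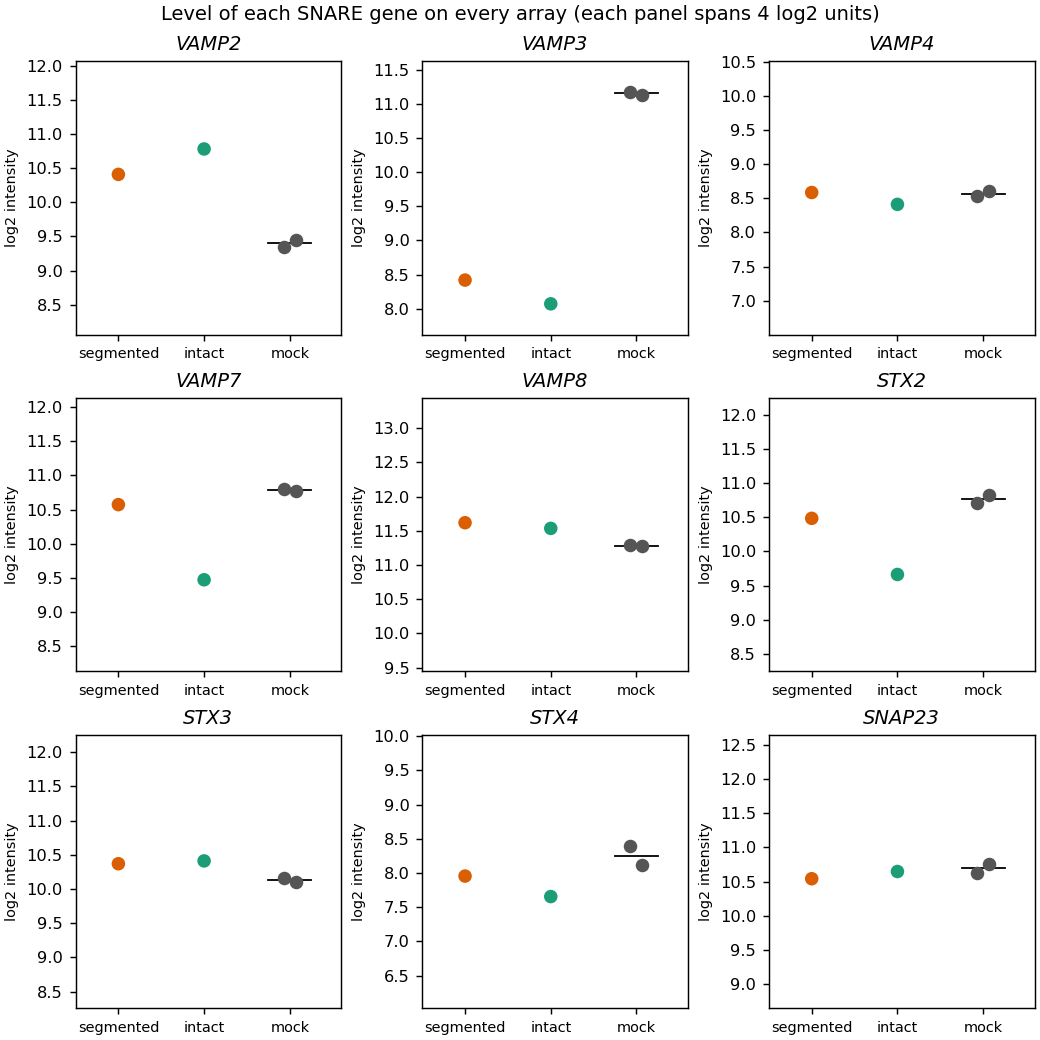
Log2 intensity (vertical axis, each panel spanning 4 units) of the 9 measured SNARE genes on the segmented, intact and 2 mock arrays, 1 point an array, with the mock mean as a line. VAMP3 lies more than 2 units below both mock arrays with either duplex, VAMP2 lies above them, and VAMP7 and STX2 lie clearly below them on the intact array.

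VAMP3, also called cellubrevin, is the R-SNARE of recycling endosomes and works with plasma membrane partners such as STX4 and SNAP23. It stood at 8.42 with the segmented duplex, 8.07 with the intact duplex, and 11.18 and 11.12 on the mock arrays. Both duplex arrays were far below both mock arrays, which differed from each other by 1.04-fold. With the segmented duplex VAMP3 fell by 2.73 on the log2 scale, a 6.63-fold difference (limma SE 0.12, adjusted p = 0.0349), and with the intact duplex it fell by 3.08, an 8.44-fold difference (SE 0.12, adjusted p = 0.00822). From the lowest change upwards, it ranked 6 among all genes with the segmented and 21 with the intact duplex.

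VAMP3 had 3 probe sets, and all lay lower with either duplex. The second stood at 8.02 with the segmented duplex, 7.64 with the intact duplex, and 10.76 and 10.77 on the mock arrays, changes of -2.74 and -3.12 that repeat those of the first. These 2 probe sets passed the fit over all 52377 probe sets in both comparisons (limma adjusted p = 0.0477 segmented, 0.0112 intact). The third was dim, at 3.0 with the segmented duplex, 2.31 with the intact duplex, and 3.83 and 3.28 on the mock arrays. No detection call was used, so whether it lies above background was not tested; its changes of -0.56 and -1.24 did not pass (adjusted p = 0.333 and 0.0538).

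VAMP7 is a longin-domain R-SNARE of late endosomes and lysosomes. Its level was 10.57 with the segmented duplex, 9.47 with the intact duplex, and 10.80 and 10.77 on the mock arrays. The intact array stood apart from the other 3. The intact duplex lowered it by 1.31, a 2.48-fold fall (limma SE 0.12, adjusted p = 0.00994), while the change with the segmented duplex, -0.21, did not pass (adjusted p = 0.345). The second probe set gave 10.58 with the segmented duplex, 9.37 with the intact duplex, and 10.78 and 10.75 on the mock arrays, with changes of -0.19 and -1.39.

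VAMP2, or synaptobrevin 2, is the R-SNARE of synaptic vesicles and of the vesicles that bring the glucose transporter GLUT4 to the surface. Its 1 probe set stood at 10.41 with the segmented duplex, 10.78 with the intact duplex, and 9.35 and 9.45 on the mock arrays, so that both duplex arrays lay above both mock arrays. VAMP2 rose by 1.01 with the segmented duplex (2.01-fold, limma SE 0.13, adjusted p = 0.0415) and by 1.38 with the intact duplex (2.61-fold, SE 0.13, adjusted p = 0.00995). In the fit over all probe sets the segmented change no longer passed (adjusted p = 0.0589). VAMP2 went the opposite way to VAMP3 with either duplex.

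VAMP4 and VAMP8 did not pass with either duplex. VAMP4, an R-SNARE of the trans-Golgi network and endosomes, was at 8.58 with the segmented duplex, 8.41 with the intact duplex, and 8.53 and 8.60 on the mock arrays. Its 2 dimmer probe sets had intact changes of 0.58 and 0.27, opposite in sign to that of the brightest, -0.16, and none passed. VAMP8, which serves the fusion of late endosomes and autophagosomes with lysosomes, was at 11.62 with the segmented duplex, 11.54 with the intact duplex, and 11.29 and 11.27 on the mock arrays. Its changes of 0.33 and 0.25 were small but both duplex arrays lay above both mock arrays (limma adjusted p = 0.185 and 0.215).

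**Figure D2:**
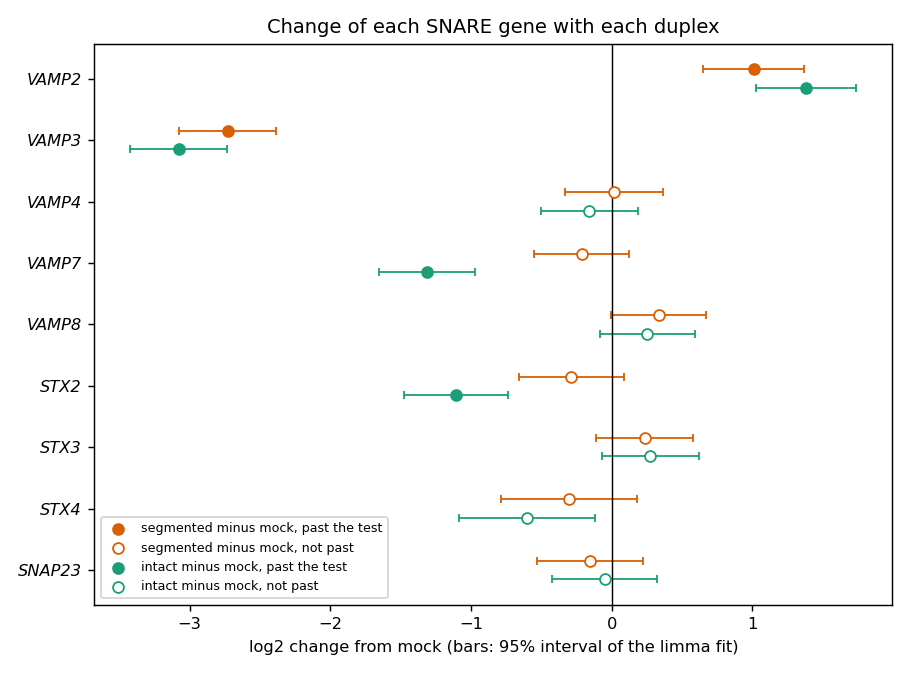
Log2 change from mock (horizontal axis) of each SNARE gene with the segmented and intact duplex, with bars for the 95% interval of the limma fit and filled points for changes past the test. VAMP3 (-2.73 and -3.08) and VAMP2 (1.01 and 1.38) are past the test with both duplexes, VAMP7 (-1.31) and STX2 (-1.11) with the intact duplex alone.

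Among the Q-SNAREs, STX2, a plasma membrane syntaxin also known as epimorphin, was at 10.48 with the segmented duplex, 9.66 with the intact duplex, and 10.71 and 10.83 on the mock arrays. Both duplex arrays were below both mock arrays, the segmented one by little. STX2 fell by 1.11 with the intact duplex (2.15-fold, limma SE 0.13, adjusted p = 0.0142). The segmented change of -0.29 did not pass (adjusted p = 0.267). A second, dimmer probe set had changes of -0.27 and -0.55 in the same order, neither past the test.

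STX4, the basolateral syntaxin, was at 7.96 with the segmented duplex, 7.66 with the intact duplex, and 8.40 and 8.11 on the mock arrays. The mock arrays differed more for STX4 than for any other of the 9 genes, by 1.21-fold. Neither change passed, at -0.30 with the segmented duplex (limma adjusted p = 0.35) and -0.60 with the intact duplex (adjusted p = 0.0819). SNAP23, the partner Q-SNARE that occurs in most tissues, was at 10.54 with the segmented duplex, 10.65 with the intact duplex, and 10.63 and 10.76 on the mock arrays. Its changes were -0.15 and -0.05 (adjusted p = 0.523 and 0.823). The 95% interval reached from -0.53 to 0.22 for the segmented and from -0.42 to 0.33 for the intact duplex. None of its 4 probe sets passed with either duplex.

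The probe sets of STX3, the apical syntaxin, differed in size of change. The bright one stood at 10.37 with the segmented duplex, 10.41 with the intact duplex, and 10.16 and 10.11 on the mock arrays. Those changes, 0.23 and 0.28, did not pass (limma adjusted p = 0.312 and 0.189). The dim one stood at 6.64 with the segmented duplex, 7.07 with the intact duplex, and 4.37 and 4.63 on the mock arrays. It rose by 2.15 with the segmented duplex (4.42-fold, limma adjusted p = 0.0477 over all probe sets) and by 2.57 with the intact duplex (5.95-fold, adjusted p = 0.0112). Which STX3 transcripts each probe set reads was not tested, and no detection call was used for the low mock levels. With the mean of both probe sets in place of the brightest, STX3 passed with either duplex, with changes of 1.19 and 1.42 (limma adjusted p = 0.0305 and 0.00736).

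Over all 19 probe sets, 2 were called lower and 1 higher with the segmented duplex, against 0.863% and 0.527% of all probe sets (1.39% in either direction). With the intact duplex 5 were called lower and 2 higher, against 7.95% and 9.13% (17.1%). Probe sets of 1 gene are not separate measurements of a condition: both sets called lower with the segmented duplex belong to VAMP3, and those called lower with the intact duplex to VAMP3, VAMP7 and STX2.

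**Figure D3:**
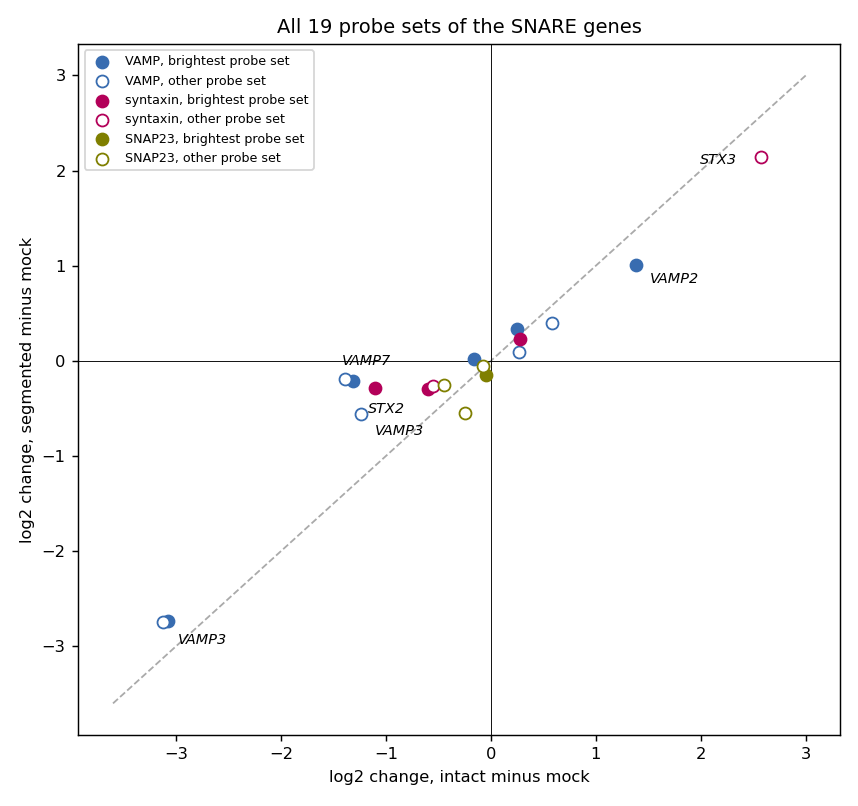
Log2 change with the intact duplex (horizontal) and the segmented duplex (vertical), each minus mock, for the 19 probe sets, coloured by family and filled for the brightest set of a gene, with a dashed line of equal change. Both bright VAMP3 sets lie at about -3.1 and -2.7, the VAMP7 sets lie well above the line at -1.31 and -1.39 on the horizontal axis, and the dim STX3 set lies far right of the bright one, at 2.57. The axes share the mock arrays.

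The duplexes were then set against each other, segmented minus intact. Each has 1 array, so the spread of this comparison came from the mock pair and the limma prior, not from repeats of either duplex. None of the 9 genes passed, and none of all 19798 did (0%, limma). At an unadjusted p under 0.05, 2 of the 9 genes and 3273 of all genes (16.5%) were counted. The 2 were VAMP7, higher with the segmented duplex by 1.10 (95% interval 0.71 to 1.49, adjusted p = 0.181), and STX2, higher by 0.82 (0.39 to 1.25, adjusted p = 0.187). Neither passed with a further quantile normalization, with arrays centred on their medians or with the mean of all probe sets. Both passed at 0.05 in limma when the dimmest 40% of genes were left out and when 16 was added to each intensity. They also passed when the prior variance followed the level with a robust fit. The adjusted p of VAMP7 was then 0.0037, 0.0146 and 1.715e-06, and that of STX2 was 0.0102, 0.027 and 6.945e-05. The same settings called 15.6%, 5.75% and 12.2% of all genes tested between the duplexes.

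For VAMP3 the segmented array was higher than the intact one by 0.35 (95% interval -0.05 to 0.74, limma adjusted p = 0.333), an interval that includes 0 and ends well short of the size of either fall. For VAMP2 it was lower by 0.37, written as a change of -0.37 (interval -0.78 to 0.04, adjusted p = 0.327). For VAMP4, VAMP8, STX3, STX4 and SNAP23 the differences lay between -0.11 and 0.30, with adjusted p-values from 0.516 to 0.918. The widest of these intervals, that of STX4, ran from -0.26 to 0.86, so these values do not show that the duplexes act alike.

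By size alone, with no test, VAMP3 was at least 1.5-fold below both mock arrays and VAMP2 at least 1.5-fold above them with either duplex. VAMP7 and STX2 were that far below with the intact duplex. The share of all genes that far below or above was 4.89% and 7.37% with the segmented duplex and 9.52% and 13.7% with the intact duplex. Between the mock arrays themselves 3.23% of genes, and none of the 9, stood 1.5-fold apart in either direction.

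Other genes of the same machinery were taken from 6 lists with 64 genes, of which 62 were measured. The segmented duplex gave 3 genes that fell and 2 that rose, with 57 short of the threshold. The intact duplex gave 7 that fell and 14 that rose, with 41 short of it. That is 8.06% called with the segmented and 33.9% with the intact duplex, against 5.99% and 24.9% over all genes. With each array centred on its median the intact duplex gave 11 that fell and 11 that rose, and with a further quantile normalization the segmented duplex gave 3 that fell and 1 that rose. The median log2 change of the 62 genes was 0.08 with the segmented and 0.18 with the intact duplex.

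A close relative of VAMP2 is VAMP1, the other synaptobrevin. It stood at 7.88 with the segmented duplex, 8.78 with the intact duplex, and 6.46 and 6.80 on the mock arrays. Both duplex arrays lay above both mock arrays. VAMP1 rose by 1.25 with the segmented duplex (limma adjusted p = 0.04995) and by 2.15 with the intact duplex (adjusted p = 0.0097). With a further quantile normalization the segmented change of 1.19 missed the threshold (adjusted p = 0.0543), and the only probe set of VAMP1 did not pass with that duplex in the fit over all probe sets. Of the 5 other R-SNARE genes, 1 rose with the segmented and 2 with the intact duplex, against 3.31% and 14.5% of all genes. The second was STXBP5, or tomosyn, an inhibitor of SNARE assembly (0.81, limma adjusted p = 0.0242). Its segmented change of 0.65 did not pass. In the fit over all probe sets 1 of its 2 probe sets passed with the intact duplex.

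Of 12 measured syntaxins outside the 3 already described, 1 fell and 0 rose with the segmented duplex, and 4 fell and 5 rose with the intact duplex. Across all genes 2.68% were called lower and 3.31% higher with the segmented duplex, and 10.4% and 14.5% with the intact duplex. In the fit over all probe sets, 0 of the 2 probe sets of STX8 and 0 of the 2 of STX16, both counted among the 5, passed. STX10, a syntaxin of the trans-Golgi network, was at 9.18 with the segmented duplex, 8.39 with the intact duplex, and 10.44 and 10.26 on the mock arrays. It fell by 1.17 with the segmented duplex (limma adjusted p = 0.0412), and the intact change was -1.97 (adjusted p = 0.00869). In the fit over all probe sets both of its probe sets passed for the intact duplex, and 0 for the segmented one. With the intact duplex STX17, the autophagosomal syntaxin, fell by 0.99, and STX11, known from immune cells, fell by 0.97. Their segmented changes of -0.67 and -0.55 did not pass. STX12, a syntaxin of recycling endosomes, rose by 1.08 with the intact duplex, and all 5 of its probe sets were called higher. Its segmented change of 0.70 did not pass.

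Of 11 other Q-SNAREs, 1 fell with the segmented duplex, and 1 fell and 1 rose with the intact duplex. The shares over all genes were 2.68% lower with the segmented duplex, and 10.4% lower and 14.5% higher with the intact duplex. These counts are by the brightest probe set. In the fit over all probe sets 7.95% were called lower with the intact duplex. Among them were 2 of the 3 probe sets of SNAP29 (all 3 from -0.91 to -0.05) and 1 of the 7 of GOSR2 (all 7 from -1.51 to 0.56). GOSR1, a Golgi SNARE, fell by 0.90 with the segmented duplex and fell by 0.57 with the intact duplex (limma adjusted p = 0.0438 and 0.0441). In the fit over all probe sets 0 of its 3 probe sets passed with the segmented and 1 with the intact duplex. SNAP25, the neuronal relative of SNAP23, was at 6.18 with the segmented duplex, 6.28 with the intact duplex, and 5.62 and 5.70 on the mock arrays, below the median level of genes on each. It is also 1 of the markers of other cell types counted above. It rose by 0.62 with the intact duplex (adjusted p = 0.0381). That call was lost with a further quantile normalization, with arrays centred on their medians and with the mean of all probe sets (limma adjusted p = 0.061, 0.0549 and 0.109). In the fit over all probe sets 0 of the 4 SNAP25 probe sets passed with the intact duplex.

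Of 19 measured genes for SNARE disassembly, SM proteins and regulators, 1 fell and 1 rose with the segmented duplex, and 2 fell and 4 rose with the intact duplex. The shares over all genes were 2.68% lower and 3.31% higher with the segmented duplex, and 10.4% and 14.5% with the intact duplex. In the fit over all probe sets 2 of 4 SCFD2 probe sets were called lower with the intact duplex. The changes of all 4 ran from -1.57 to -0.49. STXBP3, counted among the 4 that rose, did not pass in that fit by its 1 probe set. TXLNA, a syntaxin-binding protein, fell by 1.05 with the segmented duplex and fell by 1.15 with the intact duplex. In the fit over all probe sets 0 of its 2 probe sets passed with the segmented and 2 with the intact duplex. SYT7, a calcium sensor of exocytosis, rose by 0.86 and 1.48, although 1 of its 3 probe sets went the other way with each duplex. In the fit over all probe sets 0 of the 3 passed with the segmented and 1 with the intact duplex, and with the mean of all 3 neither change passed (limma adjusted p = 0.207 segmented, 0.0832 intact). VPS33A, an SM protein of the tethering complexes of the lysosome, rose by 1.30 with the intact duplex, and CPLX1, a complexin, fell by 1.10. Their segmented changes of 0.59 and -0.38 did not pass. Of 6 endocytic adaptors of VAMP proteins 0 passed with either duplex by limma. At an unadjusted p under 0.05 there were 1 with the segmented and 3 with the intact duplex, against 27.4% and 39.5% of all genes. These counts are by the brightest probe set: of the 5 probe sets of AGFG1, an adaptor known to bind VAMP7, 3 were called lower with the intact duplex in the fit over all probe sets, with changes of all 5 from -1.41 to -0.44. Of 9 exocyst genes 0 passed with the segmented duplex by limma, with 2 at an unadjusted p under 0.05 (27.4% of all genes). With the intact duplex 2 rose, EXOC4 by 0.76 and EXOC1 by 0.72, against 14.5% of all genes called higher. Their segmented changes of 0.34 and 0.51 did not pass. In the fit over all probe sets 1 of the 3 probe sets of EXOC4 passed with the intact duplex, as did the only one of EXOC1. Of the 4 probe sets of EXOC5, 1 was called lower with the intact duplex in the fit over all probe sets. The changes of all 4 ran from -1.46 to 0.10.

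**Figure D4:**
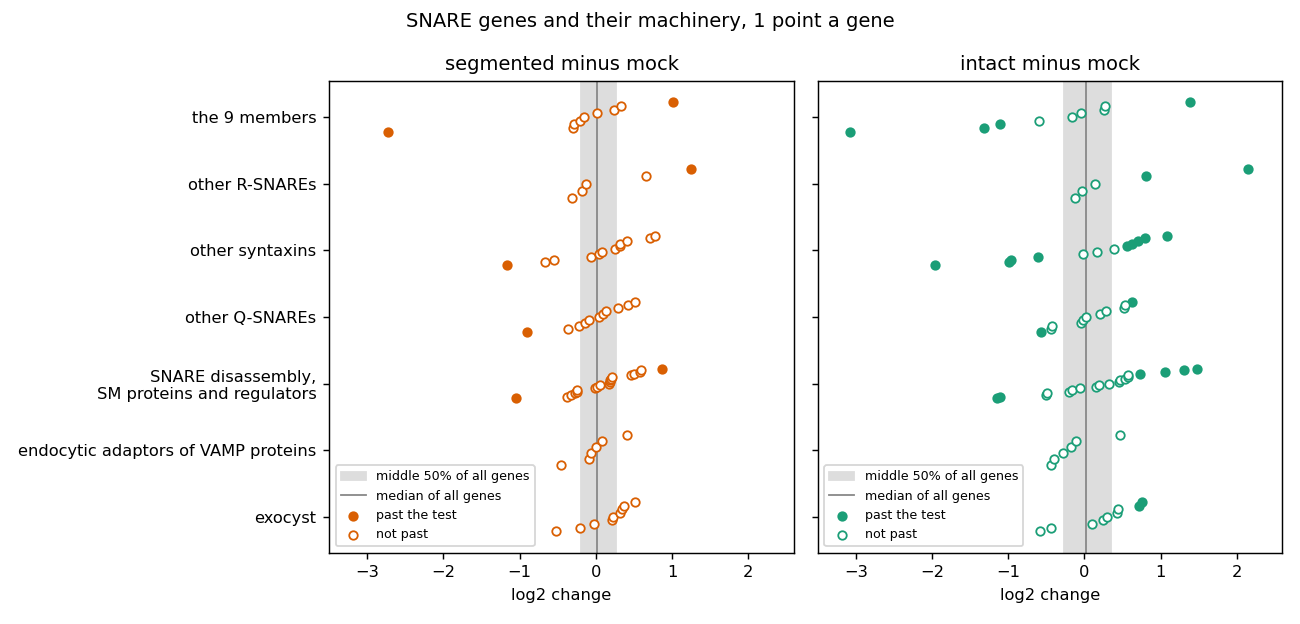
Log2 change from mock (horizontal axis) with the segmented duplex (left) and the intact duplex (right) of the 9 SNARE genes and of 6 lists of other SNARE genes and machinery, 1 point a gene, filled where past the test, over a band for the middle 50% of all genes. VAMP3 is the lowest point in both panels, and VAMP1, at 1.25 and 2.15, the highest.

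The genes whose pattern was most like that of VAMP3 were looked up by distance over the 2 log2 changes from mock, among 9830 genes outside the lists with a mock level above the median. The nearest was CDK4, a kinase gene of the G1 phase of the cell cycle, at -2.47 with the segmented and -2.92 with the intact duplex. ERVMER34-1 (-2.41 and -3.21), SERINC2 (-2.38 and -3.12), the connexin gene GJB2 (-2.34 and -3.03) and SUCLG2 of the citric acid cycle (-2.62 and -3.47) followed, with distances from 0.30 for CDK4 to 0.41 for SUCLG2. The likeness rests on 4 arrays and on changes that share the mock arrays.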

How the data were processed

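Total RNA of 4 samples was hybridised to 1 array each. The deposited intensities, from 2.51 to 22268, were made by the authors with RMA, which corrects background, quantile-normalizes and summarises probes, as the submitters' processing notes say without a version (per the submitters' processing notes). Their range shows a linear scale, although RMA works in log2. Quantile normalization removes changes shared by most genes. Log2 was taken without a pseudocount. Gene names came from the platform annotation, with symbols updated by Entrez identifier to a RefSeq table of GRCh38.p14 (35134 of 35184 probe sets with 1 gene matched); 374 had several genes and 16819 were not listed, and none of these names a gene. No build is named in the files, so coordinates are left out.

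Each gene was read from its brightest probe set, by mean log2 intensity on the 4 arrays. The test was limma (version 3.58.1, R version 4.3.3), fitted to the 4 arrays with 1 mean a group, then eBayes and Benjamini-Hochberg adjustment over 19798 genes or, for single probe sets, over 52377. There was 1 residual degree of freedom, and 2.89 from the prior for genes. The number of arrays limits the precision.

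The members and lists were chosen with earlier results of these data known. All members were named with every probe set, up to 4 genes of each other list that passed with either duplex, largest change first, and the 5 genes nearest to VAMP3. LGALS4, VIL1, CDH1, CDX2, KRT18, COL1A1, AGFG1, SNAP29, GOSR2, SCFD2, STXBP3, STX8, STX16 and EXOC5 were named after their values were seen. Alternatives were a further quantile normalization, median centring, leaving out the dimmest 40% of genes, adding 16 to intensities, a trended robust prior, the mean of all probe sets, leaving out each mock array and, for size alone, 2-fold. No microRNA, target site or protein sequence is shown.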

Additional observations from a re-analysis of the deposited data

How the results depend on the processing

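No paired analysis was possible because each duplex has 1 array. VAMP3 kept its direction and its call against mock with both duplexes under every alternative that allows a test, and no change of a named gene that had passed turned its sign. Leaving out a mock array left no spread to test. STX4 with the segmented duplex, which had not passed, was then -0.16 and -0.44 in place of -0.30, and SNAP23 with the intact duplex, which had not passed either, was -0.11 and 0.02 in place of -0.05. The count of SNARE genes lower with the segmented duplex was 2 in place of 1 with the trended robust prior. The count higher was 2 in place of 1 with the dimmest 40% left out, with that prior and with the mean of all probe sets. Higher with the intact duplex were 3 with that prior and 2 with the mean of all probe sets, in place of 1. Between the duplexes 2 were higher in the segmented, in place of 0, with the dimmest left out, with 16 added and with that prior. STX4 passed with the intact duplex (-0.69, -0.60, -0.56 and -0.60) under median centring, with the dimmest left out, with 16 added and with that prior. Member probe sets higher with the segmented duplex were 2, 2 and 3 in place of 1 with the dimmest left out, 16 added and that prior. With the intact duplex 8 were lower in place of 5 with the dimmest left out, and 5 higher in place of 2 with that prior. Of the other machinery, 8, 6 and 8 genes were lower in place of 3, and 14, 13 and 17 higher in place of 2, with the segmented duplex under the same 3 settings. There was 1 higher with a further quantile normalization or the mean of all probe sets. With the intact duplex 14, 14 and 14 were lower in place of 7 and 26, 26 and 26 higher in place of 14 under those 3 settings, and 11 lower under median centring or the mean of all probe sets. By size alone 2 SNARE genes were higher with each duplex, in place of 1, by the mean of all probe sets, and 0 with the segmented duplex at 2-fold. Those 3 settings also raise the share of all genes called, from 5.99% to 40.2%, 21.6% and 27.4% with the segmented duplex and from 24.9% to 58.5%, 35.5% and 39.4% with the intact duplex. The cause was not tested.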
